A study of Mus musculus with 4 samples.

Results

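Collagen genes were followed across the nuclei of mouse eye tissue labelled retina. A collagen gene was any annotated symbol written Col, a number, the letter a and a number, with at least 20 unique molecular identifiers (UMIs, one per captured RNA molecule) over all libraries. All 44 such symbols of the 31053 genes listed met that limit, from Col6a5 with 70 UMIs to Col23a1 with 23034. The 4 libraries are single-nucleus RNA libraries made with 10x Genomics chemistry from left eyes. Of these, 2 came from mice 2.5 months old, labelled wild type, and 2 from mice 5 months old, whose genotype and strain the labels do not give. The donors are described as unrelated mice, and no treatment is named for either age. The series title speaks of the human retina, while the labels and the gene annotation of these samples are of the mouse.

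Collagens are extracellular matrix proteins built from 3 chains wound into a triple helix. Fibrillar collagens form the load-bearing fibers of sclera and other connective tissue, network collagens form basement membranes and related sheets, and fibril-associated collagens (FACITs) sit on the surface of fibrils. Beaded-filament, multiplexin, transmembrane and anchoring collagens make up the other groups. In the eye, type IV chains line the retinal vessels, the inner limiting membrane and Bruch's membrane beneath the pigment epithelium, and types II and IX are known from the vitreous. The 44 genes comprised 11 fibrillar, 9 network, 6 beaded-filament, 9 FACIT, 2 multiplexin, 4 transmembrane and 1 anchoring-fibril gene, plus 2 others (Col26a1 and Col28a1).

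After quality control and removal of likely doublets, 30361 of 32326 barcodes were kept, and 29898 of them fell in 17 classes. Clusters were formed without the collagen genes and without the matrix pathway genes, so they took no part in drawing the classes. The classes were rods, cones, bipolar, amacrine, ganglion and horizontal cells, Müller glia (the radial glia of the retina), retinal pigment epithelium, melanocytes, fibroblasts, endothelium, microglia and macrophages, striated muscle, and 4 clusters called by their leading genes. Those 4 were the Myh11, Tbx20 and Slc4a4 pigment clusters and the Slc26a4 and Optc cluster. Fibroblasts, melanocytes and muscle are not cells of the neural retina, so the dissected tissue held more than its label says. No pericyte or astrocyte cluster was found, and 7 of 8 pericyte markers were raised in the largest fibroblast cluster. Endothelium (147 nuclei, 16 to 67 a library), microglia and macrophages (153, 19 to 59) and striated muscle (161, 6 to 124) were small. Libraries with under 20 nuclei of a class were left out of its tests. For striated muscle this left only 2.5-month library 1 and 5-month library 1, with 124 and 20 nuclei.

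Levels are CPM, the counts scaled to a total of 1000000, of the UMIs summed over the nuclei of a class in a library, and 4 values in a row are those of 2.5-month libraries 1 and 2 and 5-month libraries 1 and 2. The levels are not corrected for gene length and are compared between classes, not between genes. Summed UMIs ran from 16189 (striated muscle, 2.5-month library 2) to 8518251 (amacrine cells) a class and library. A gene was called higher in a class at an edgeR adjusted p under 0.05 and a log2 fold change over 1 against the mean of the other classes, with the library as a block. For this 38 collagen genes had enough counts, and Col6a4, Col6a5, Col6a6, Col10a1, Col17a1 and Col28a1 did not. The filter keeps genes that are high in at least 1 class, so the counts below describe these genes and are not evidence that collagens as a family differ between classes.

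Free RNA from broken cells reaches every class of droplet data. The 13 fibroblast markers that are not collagens were present in rods at a median of 2.99% of their fibroblast level, in Müller glia at 1.51% and in cones at 1.91%. The 7 of 8 pigment epithelium markers with UMIs in that class stood in rods at a median of 3.42% of the level in that epithelium, in cones at 1.76% and in Müller glia at 1.58%. The other marker, Best1, had no UMI in the pigment epithelium class. In rods, cones and Müller glia, levels of a collagen gene at or below such shares of its source class are read here as background. Col8a1 in Müller glia is an exception, treated below. The median of the fibroblast markers was 16.28% in endothelium, 15.88% in the Tbx20 pigment cluster and 14.1% in the Slc26a4 and Optc cluster. It was 9.14% in microglia and macrophages and 7.53% in the Myh11 pigment cluster. In bipolar, amacrine, ganglion and horizontal cells and the pigment epithelium it lay below that of rods. The part of fibroblast RNA in the collagen levels and calls of the classes with higher medians was not tested.

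The 5 upstream sequences are shown because the genes they precede mark the main patterns below: Col3a1 the fibroblasts, Col8a1 the pigment epithelium and fibroblasts, Col4a5 and Col4a6 the 3 pigment clusters, and Col27a1 the horizontal cells. Col4a6 and Col4a5 lie head to head on chromosome X, 1309 bases apart and on opposite strands, so their sequences are the 2 ends of a shared interval. All come from RefSeq promoters of build GRCm38.p6, which listed 35 of the 44 genes, and hold the 250 bases upstream of the RefSeq start. That of Col4a5 was shortened to 216 bases so that it ends before the annotated gene, and that of Col27a1 lies inside the gene as the gene annotation draws it. Capitals mark matches to 3 short promoter motifs, each searched on both strands. The TATA box was searched as TATAAA, the CCAAT box by the letters of its name and the GC box as GGGCGG.
Col3a1, chr1:45311288-45311537, plus strand: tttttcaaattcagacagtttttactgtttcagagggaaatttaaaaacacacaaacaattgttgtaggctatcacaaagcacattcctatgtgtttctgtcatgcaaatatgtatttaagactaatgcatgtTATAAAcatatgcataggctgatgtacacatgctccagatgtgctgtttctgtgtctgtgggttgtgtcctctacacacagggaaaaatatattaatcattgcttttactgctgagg
Col8a1, chr16:57754738-57754987, minus strand: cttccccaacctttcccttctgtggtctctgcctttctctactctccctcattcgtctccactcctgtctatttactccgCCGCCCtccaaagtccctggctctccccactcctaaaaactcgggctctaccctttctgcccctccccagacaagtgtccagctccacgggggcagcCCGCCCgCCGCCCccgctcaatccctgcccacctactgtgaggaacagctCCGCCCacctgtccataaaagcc
Col4a5, chrX:141475169-141475384, plus strand: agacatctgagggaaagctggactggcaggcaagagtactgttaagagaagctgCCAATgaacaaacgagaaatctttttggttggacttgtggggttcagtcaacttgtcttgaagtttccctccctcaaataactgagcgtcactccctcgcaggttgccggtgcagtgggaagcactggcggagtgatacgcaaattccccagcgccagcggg
Col4a6, chrX:141474077-141474326, minus strand: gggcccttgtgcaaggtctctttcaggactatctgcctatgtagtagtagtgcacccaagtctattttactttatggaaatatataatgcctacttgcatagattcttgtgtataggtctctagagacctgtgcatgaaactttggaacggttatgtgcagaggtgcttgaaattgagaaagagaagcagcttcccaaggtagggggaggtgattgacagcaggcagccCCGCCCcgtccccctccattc
Col27a1, chr4:63215162-63215411, plus strand: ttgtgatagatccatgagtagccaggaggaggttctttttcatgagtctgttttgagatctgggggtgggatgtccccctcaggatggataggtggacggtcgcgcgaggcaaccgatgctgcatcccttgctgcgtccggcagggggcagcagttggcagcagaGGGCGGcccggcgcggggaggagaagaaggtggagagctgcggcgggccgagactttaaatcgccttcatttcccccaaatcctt
The Col3a1 window held 1 TATA box and was the poorest in G and C of the 5 (35.2%), while the Col8a1 window held 4 GC boxes and was the richest (60.8%). The Col4a5 window held 1 CCAAT box, and the Col4a6 and Col27a1 windows held 1 GC box each. Among 32851 RefSeq promoters of 250 upstream bases, 12.4% held the TATA box, 33.8% the CCAAT box and 32.7% the GC box. These matches describe the letters and not a binding site.

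Fibroblasts and Müller glia held the largest numbers of collagen molecules together with amacrine cells. Of all collagen UMIs in the 17 classes, 23.1% lay in 3251 Müller nuclei, 21.4% in 1633 fibroblast nuclei, 18.6% in 5364 amacrine nuclei and 8.88% in only 270 nuclei of the pigment epithelium. The 8745 rod nuclei held 3.78% and the 3132 cone nuclei 0.855%. Summed over the 44 genes, the collagen level was highest of the 17 classes in the pigment epithelium, between 7513 and 11710 CPM over the libraries. It lay between 5192 and 7089 CPM in fibroblasts, between 2979 and 3227 in Müller glia and between 137 and 165 in cones. These ranges did not overlap. That of the Slc26a4 and Optc cluster, 4824 to 5487 CPM, overlapped the fibroblasts.

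**Figure D1:**
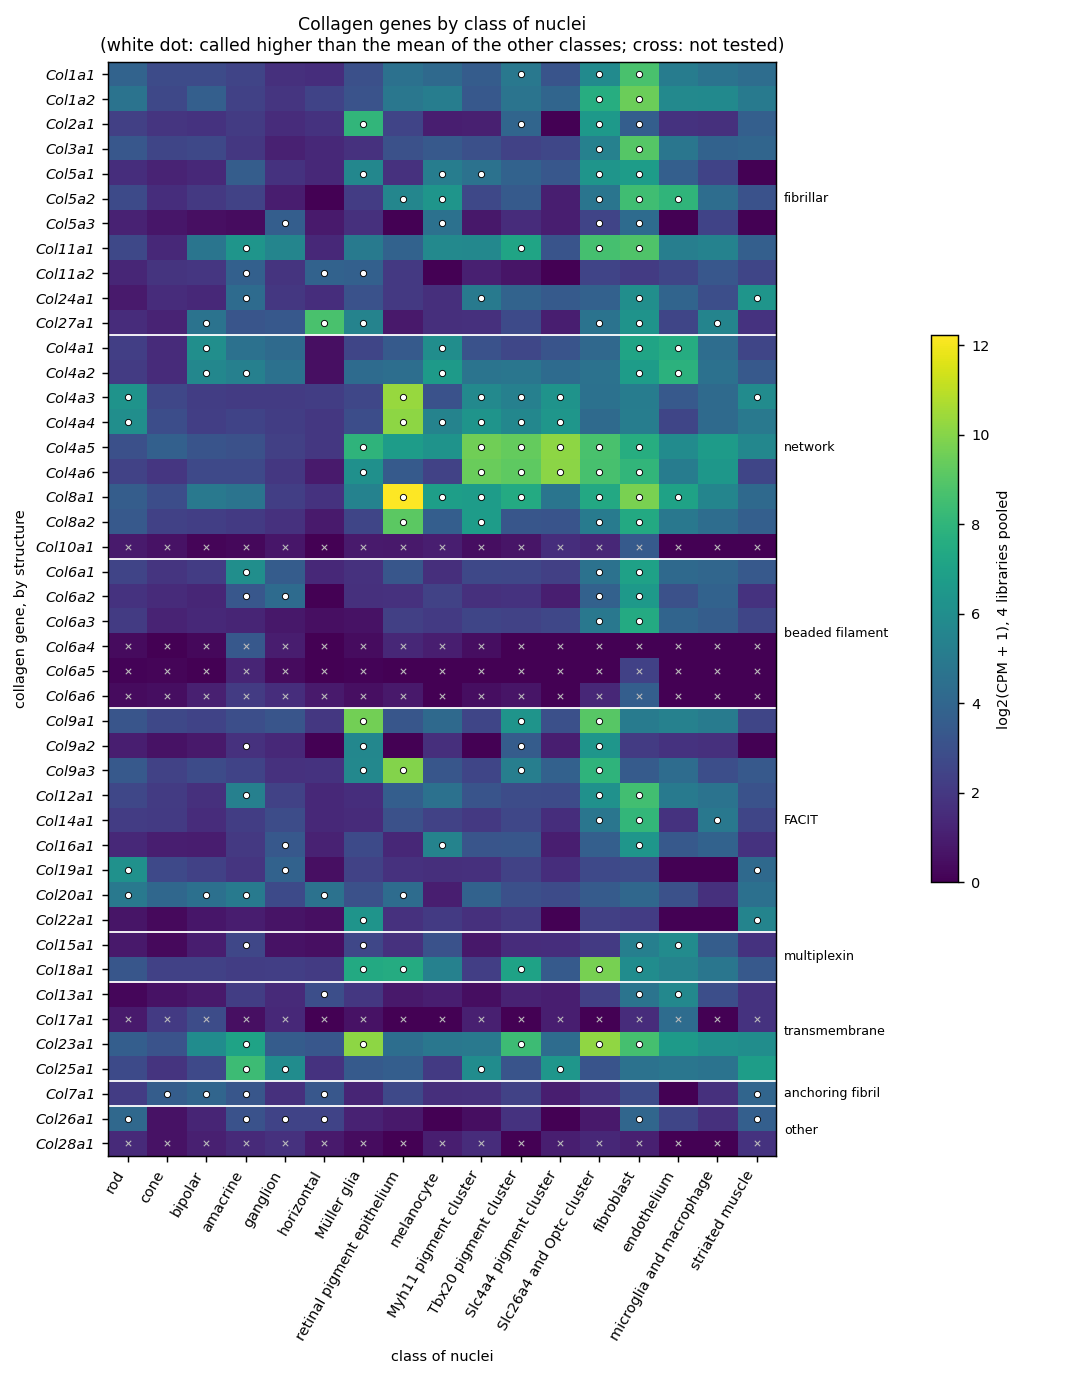
Level of the 44 collagen genes (rows, grouped by structure) in 17 classes of nuclei (columns), as log2(CPM + 1) of the 4 libraries pooled. White dots mark the class and gene pairs called higher, crosses the 6 genes that were not tested, and the fibroblast column carries the most dots, 27.

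The number of collagen genes called higher differed widely by class. In fibroblasts it was 27, against 16.4% of all 14788 genes tested, and in the Slc26a4 and Optc cluster 23, against 13.2%. Amacrine cells had 14 (17.1% of all genes), Müller glia 13 (14.8%), the Tbx20 pigment cluster 13 (12.1%), the Myh11 pigment cluster 9 (13.1%), the pigment epithelium 8 (11.4%) and melanocytes 8 (10.9%). Ganglion cells had 6 (18.3%), horizontal cells 6 (10.7%), endothelium 6 (9.99%), striated muscle 6 (7.48%), rods 5 (12.6%), bipolar cells 5 (13.5%), the Slc4a4 pigment cluster 5 (9.12%), microglia and macrophages 2 (13.1%) and cones 1 (13.9%). The count in cones is near 0 and depends on the library left out (0 to 2). Collagen genes called lower numbered 22 of 38 in cones (13.4% of all genes), 22 in horizontal cells (1775 of the 14788 genes tested), 15 in bipolar cells (8.26%), 15 in ganglion cells (8.88%), 13 in rods (13.2%), 12 in amacrine cells (6.9%) and 10 in Müller glia (6.67%). The median log2 fold change over the tested collagen genes was 3.39 in fibroblasts and 1.85 in the Slc26a4 and Optc cluster, beside 0.07 and -0.01 over all genes tested. It was -1.94 in cones and -2.23 in horizontal cells, beside 0.04 and -0.1.

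The class with the highest pooled level was the fibroblasts for 15 of the 44 genes. The pigment epithelium and endothelium led for 5 each, amacrine cells, Müller glia and the Slc26a4 and Optc cluster for 3 each. For 22 of the 38 tested genes, the libraries of the highest class did not overlap those of the second class, beside 28.7% of all genes tested. The same class was highest in all 4 libraries for 24 of the 44.

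The fibrillar genes of connective tissue were concentrated in fibroblasts. Col3a1, the type III chain that accompanies type I in elastic tissue, stood at 507, 545, 347 and 594 CPM there. The second class, the Slc26a4 and Optc cluster, had 57.9, 0, 21.03 and 43.1, well below every fibroblast library. The fitted log2 fold change of Col3a1 in fibroblasts was 6.16 ± 0.13 (SE, adjusted p = 8.28e-48). Col1a1 and Col1a2, the 2 chains of type I collagen, were at 449, 266, 285 and 556 CPM and at 793, 589, 443 and 841 CPM. In rods their pooled levels were 3.33% and 3.40% of those in fibroblasts, close to the median share of the other fibroblast markers there. Both chains were also called higher in the Slc26a4 and Optc cluster (log2 fold changes 1.96 and 3.34), where Col1a1 had no UMI in 2.5-month library 2.

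Type V chains, which join type I fibrils and limit their width, were not confined to fibroblasts. Col5a2 reached 392, 437, 286 and 331 CPM in fibroblasts and 318, 271.5, 183 and 164 CPM in endothelium, and these libraries overlapped. It was called higher in both, by 5.58 ± 0.15 and 4.84 ± 0.36 on the log2 scale. Col5a1 was called higher in 5 classes, among them Müller glia, at 40.9, 41.2, 51.0 and 55.6 CPM. Col5a3 was low throughout, with its highest levels in melanocytes (16.99, 16.02, 6.75 and 35.5 CPM, from 21 UMIs), fibroblasts (15.5, 13.4, 17.4 and 23.7 CPM) and ganglion cells (5.97, 7.66, 11.4 and 15.4 CPM). Fibroblast cluster 31 held 71.3 CPM pooled, from 49 UMIs. Its call in the Slc26a4 and Optc cluster rested on 6 UMIs.

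The type II chain Col2a1, the main collagen of cartilage and vitreous, had a different home. Müller glia held 85.7% of its UMIs, at 220.5, 228, 259 and 310.0 CPM. The second class was again the Slc26a4 and Optc cluster, at 89.6, 89.2, 137 and 79.6, and no library of it reached a Müller library. In rods the level was 1.48% of that in Müller glia. Col11a1, a minor fibrillar chain that copolymerizes with type II, was instead highest in fibroblasts (531.5, 806, 381 and 283 CPM) and in the Slc26a4 and Optc cluster (500.3, 282, 280.5 and 375 CPM), with overlapping libraries. Amacrine cells (65.2, 62.1, 102 and 92.0) and the Tbx20 pigment cluster (137, 114, 165 and 136) were also called for Col11a1. Its partner Col11a2 was low and was called in horizontal cells, amacrine cells and Müller glia, so the 2 type XI chains ran differently over the 17 classes (Pearson r = -0.03 on log2(CPM + 1)).

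The short-triple-helix fibrillar chain Col27a1 marked horizontal cells, interneurons that modulate photoreceptor output. It stood there at 309, 379, 441 and 451 CPM, above every library of fibroblasts, its second class (89.3, 84.3, 69.7 and 64.3). The log2 fold change was 6.71 ± 0.17 (adjusted p = 1.58e-42). In rods the pooled level was 1.92 CPM and in cones 1.30. Amacrine cluster 14, led by Dnah11 and Lgr5, also carried Col27a1, at 110.0, 124, 111 and 138 CPM, while the amacrine class as a whole was at 8.18. Col24a1, another minor fibrillar chain, was highest as a class in striated muscle from 34 UMIs, but amacrine cluster 43, led by Slc17a8, held 202, 219, 318 and 252 CPM of it.

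**Figure D2:**
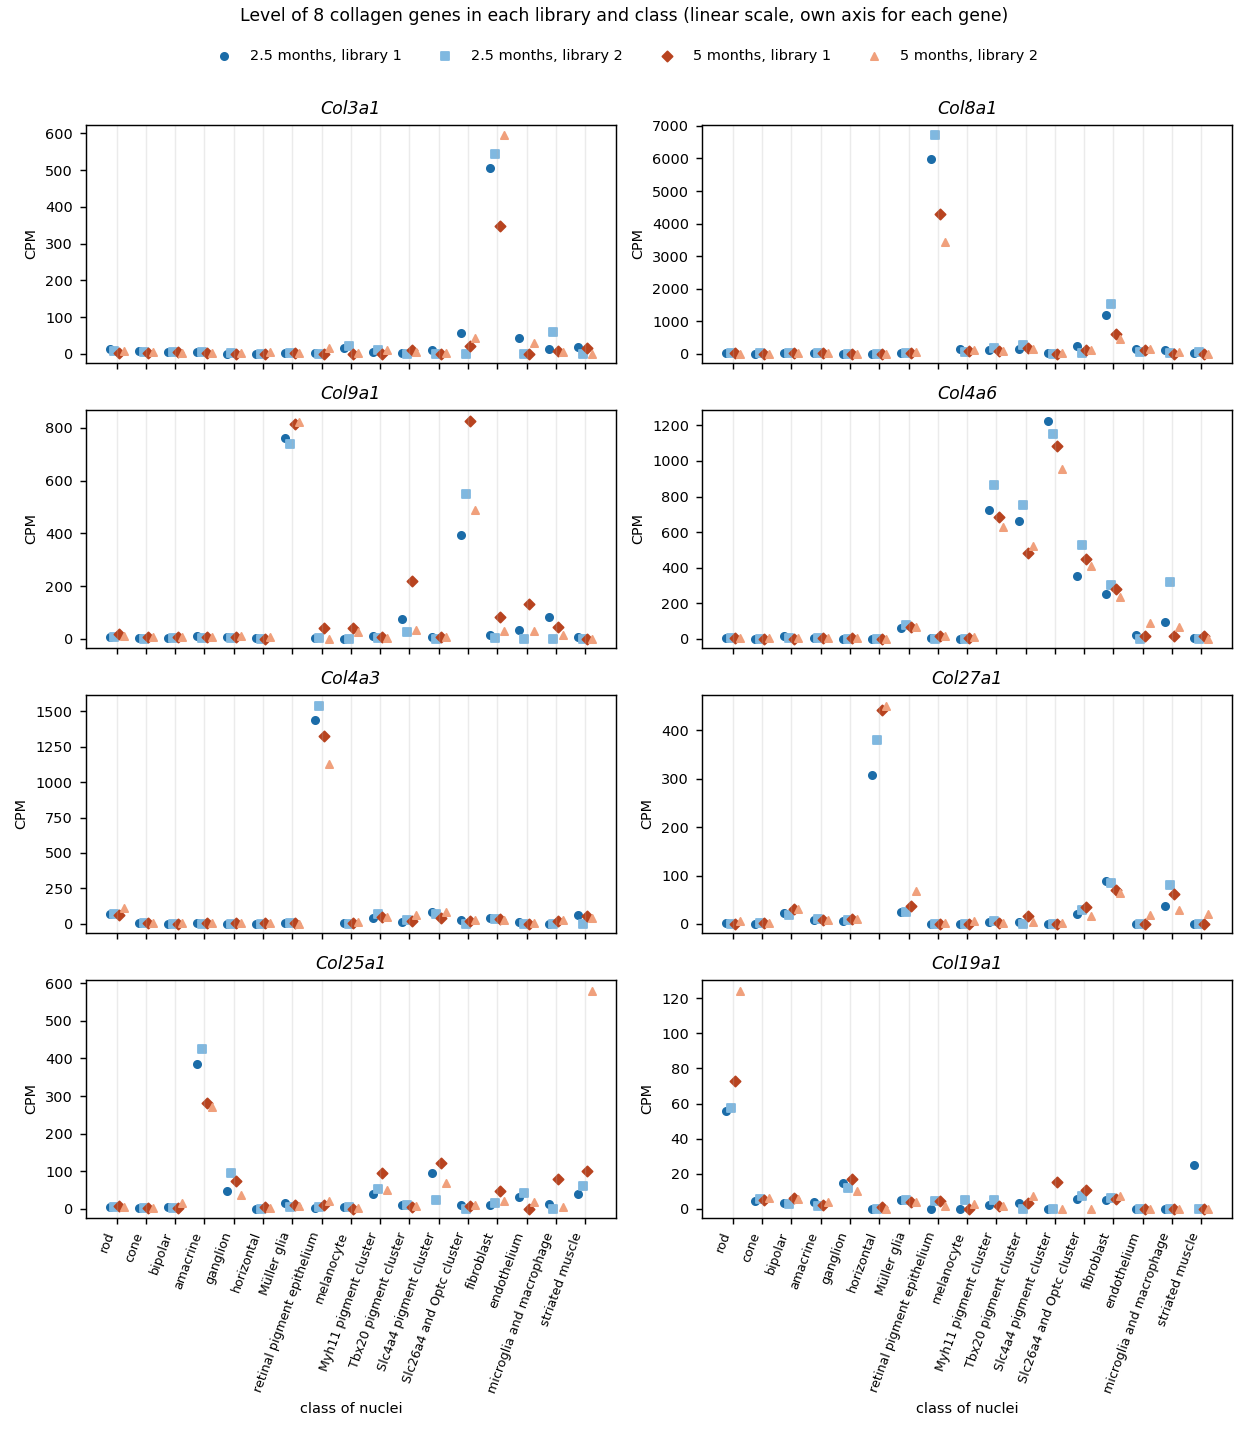
CPM of 8 collagen genes (panels, linear axes of their own) in the 17 classes (x axis), with a point for each of the 4 libraries. In each panel except that of Col25a1 the leading class stands clear of nearly all others, and the high point for Col25a1 in striated muscle comes from a library with 11 muscle nuclei.

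Type IV collagen forms the sheet of basement membranes from chain sets that are encoded as head-to-head gene pairs. Col4a1 and Col4a2, whose annotated starts overlap by 21 bases on chromosome 8, were highest among the classes in endothelium. In the 3 libraries with at least 20 endothelial nuclei (2.5-month library 1 and both 5-month libraries), Col4a1 was at 181, 300.2 and 203 CPM and Col4a2 at 148, 233.5 and 270.4. Fibroblasts followed, at 154, 125, 144 and 131 CPM for Col4a1 and 118, 92.8, 109 and 102 for Col4a2. Endothelium rested on 79 and 96 UMIs, and 2.5-month library 2, with 16 endothelial nuclei, was left out of its fit. In the other libraries endothelium stood above fibroblasts for both genes, and in the library left out Col4a1 in endothelium lay below every fibroblast library, from 7 UMIs. Of 8 pericyte markers, 7 were detected in endothelium, at a summed level of 75.5% of that in fibroblasts (median gene share 29.8%), and the part of pericyte RNA in these values was not tested. Both genes were also called in bipolar cells (log2 fold changes 2.59 and 1.63), where 1 cluster carried them. In bipolar cluster 6, which has Prkca among its leading genes, Col4a1 was at 167, 233, 189 and 187 CPM and Col4a2 at 120, 134.5, 145 and 128 CPM. In the other bipolar clusters Col4a1 lay between 0 and 32.6 CPM pooled.

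Col4a3 and Col4a4, the chains of specialised basement membranes such as that of the kidney glomerulus, were highest among the classes in the pigment epithelium. Col4a3 was at 1439, 1539, 1325 and 1126 CPM there and Col4a4 at 1263, 1296, 1381 and 885 CPM. No other class reached 100 CPM pooled for either gene. Their log2 fold changes were 6.65 ± 0.11 and 6.35 ± 0.1, and their starts lie 72 bases apart on chromosome 1. Cluster 44, left out of the classes and described below, held 4433 CPM of Col4a3 and 2410 CPM of Col4a4 pooled.

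Rods also carried this pair, at levels above those of cones. In rods Col4a3 was at 71.2, 68.7, 59.9 and 113 CPM and Col4a4 at 58.0, 61.2, 83.4 and 75.1, both called higher (log2 fold changes 2.12 and 1.80). In cones the 4 libraries ranged from 3.10 to 6.69 CPM for Col4a3 and from 5.17 to 7.33 for Col4a4, and both genes were called lower there. Both rod clusters held the pair, Col4a3 at 81.5 and 67.7 CPM. The rod level was 5.91% of the pigment epithelium level for Col4a3 and 5.77% for Col4a4. Other genes of that epithelium stood in rods at 1.04% (Rpe65), 0.237% (Col8a1), 2.49% (Rgr) and 10.2% (Ttr), and at 0.419%, 0.133%, 1.21% and 5.57% in cones. The part of free pigment epithelium RNA in the rod values was not tested.

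Col4a5 and Col4a6, the pair on chromosome X, marked the 3 pigment clusters. Col4a6 was at 1227, 1149, 1084 and 954 CPM in the Slc4a4 pigment cluster, at 722, 865, 684 and 630.3 in the Myh11 pigment cluster, and at 661, 753, 482 and 522 in the Tbx20 pigment cluster. Col4a5 ran beside it, at 1204, 1287, 1015 and 1110.0 CPM, at 842, 898, 804 and 682, and at 722, 756, 588 and 578. Melanocytes, which share the pigment genes of these clusters, had only 0 to 8.20 CPM of Col4a6, and the pigment epithelium 0 to 15.2. Müller glia held more Col4a5 (243, 234, 269 and 241 CPM) than Col4a6 (63.0, 77.7, 67.5 and 69.1), a comparison that takes no account of gene length. In the Slc4a4 pigment cluster, 2.5-month library 2 held 11 nuclei and was left out of the fit. Within the fibroblasts, cluster 22 held 874 CPM of Col4a6 pooled, beside 694 and 584 in the Myh11 and Tbx20 pigment clusters. Cluster 44, left out of the classes and described below, held 1629 CPM.

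Partner chains mostly followed each other over the 17 classes. On log2(CPM + 1), Pearson's r was 0.92 for Col4a1 and Col4a2, 0.95 for Col4a3 and Col4a4, 0.91 for Col4a5 and Col4a6, 0.96 for Col1a1 and Col1a2, 0.95 for Col9a1 and Col9a2 and 0.89 for Col8a1 and Col8a2. Without the class highest for the first gene, these were 0.90 for each type IV pair, 0.94, 0.93 and 0.82. These are descriptions over classes that share their libraries and depth. Col5a1 and Col5a2 (0.51) and Col9a1 and Col9a3 (0.54) followed each other less closely.

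Type VIII collagen, a short-chain network known from Descemet's membrane of the cornea, was also highest among the classes in the pigment epithelium. Col8a1 stood there at 5978, 6705, 4292 and 3432 CPM and held 48.1% of its UMIs in these 270 nuclei. Fibroblasts came next, at 1197, 1535, 611 and 456 CPM, without overlap. Its log2 fold changes were 7.12 ± 0.13 and 4.19 ± 0.15. Col8a2 followed the same order, at 710.2, 594, 521 and 498 CPM in the pigment epithelium and 214, 214, 118 and 149 in fibroblasts. The Myh11 pigment cluster followed for Col8a2 (105, 103, 101.1 and 113 CPM), with every library of it below every fibroblast library. Col10a1, the network chain of hypertrophic cartilage, was near the limit of detection, with 45 UMIs in fibroblasts. Of these, 43 were in fibroblast cluster 5. Col10a1 lies within Nt5dc1 on the other strand, and whether any of its few reads belong to Nt5dc1 was not tested.

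The beaded-filament chains of type VI, which surround connective tissue and muscle cells, split between fibroblasts and neurons. In fibroblasts Col6a3 was at 209.5, 172, 115 and 190 CPM, Col6a1 at 148.5, 110, 77.3 and 144 and Col6a2 at 116, 96.5, 62.1 and 98.3. Amacrine cells had 44.9, 39.6, 85.4 and 77.5 CPM of Col6a1, overlapping the fibroblasts, but a pooled Col6a3 level of 0.811% of that in fibroblasts. Amacrine clusters 8 (led by Maf and Tnc) and 20 (led by Olfm3) held the most Col6a1, at 158.5 and 140.5 CPM pooled. Ganglion cells were called for Col6a2, at 13.2, 12.2, 21.3 and 21.03 CPM. Col6a4, Col6a5 and Col6a6, neighbouring genes on chromosome 9, were sparse. Col6a4 was almost limited to amacrine cluster 16 (48.0, 80.2, 87.1 and 74.7 CPM, 197 of 276 UMIs in all classes), while fibroblast cluster 31 led for Col6a5 (15 UMIs) and Col6a6 (48 UMIs).

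FACITs differed in their leading classes. Col12a1 and Col14a1, which decorate type I fibrils, were fibroblast genes, at 539, 369, 256 and 289 CPM and at 217, 399, 169 and 308 CPM. Their log2 fold changes were 5.23 ± 0.13 and 5.80 ± 0.18. Col12a1 was also called in amacrine cells, where cluster 10 (led by Nxph2 and Trhr) held 256, 459, 169 and 277.5 CPM. Col16a1 was highest in fibroblasts (79.9, 62.3, 56.6 and 112 CPM) and next in melanocytes (21.2, 10.7, 40.5 and 73.8).

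The type IX chains, which coat type II fibrils, were divided between classes. Col9a1 was at 762, 737, 814 and 821 CPM in Müller glia and at 394, 550.0, 827 and 487 in the Slc26a4 and Optc cluster, with overlap. Col9a2 had the reverse order, at 39.2, 27.8, 52.6 and 61.9 CPM and at 84.0, 37.2, 102 and 86.2. Col9a3 was a gene of the pigment epithelium, at 880.0, 1045, 1051 and 989 CPM, against 33.2, 39.6, 56.3 and 60.5 in Müller glia and 211, 208, 435 and 156 in the Slc26a4 and Optc cluster. In the pigment epithelium Col9a1 was at 3.09, 4.75, 41.9 and 0 CPM, so the type IX chains were not found together there.

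Col22a1, a FACIT of tissue junctions, was called higher in Müller glia and striated muscle only. It stood at 81.7, 73.1, 79.6 and 82.3 CPM in Müller glia, with a log2 fold change of 6.50 ± 0.2. The pooled muscle value came from 18 UMIs and reached 803 CPM in a library with 6 muscle nuclei, which was left out of the fit. The muscle libraries in the fit, 2.5-month library 1 and 5-month library 1, stood at 7.19 and 43.55 CPM. Col19a1 was the FACIT of rods, at 55.8, 57.4, 72.9 and 124 CPM, against at most 25.2 in any library of another class. In cones it was at 4.58, 5.68, 5.26 and 6.17 CPM. Its log2 fold change in rods was 4.93 ± 0.2 (adjusted p = 4.06e-31), and both rod clusters held it (76.3 and 61.1 CPM pooled). Col20a1 was spread over rods, amacrine, horizontal and bipolar cells and the pigment epithelium at pooled levels up to 30.8 CPM, with overlapping libraries.

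Multiplexins are basement membrane collagens whose ends can be released as fragments, endostatin being that of Col18a1. Col18a1 was highest in the Slc26a4 and Optc cluster (799, 595, 841 and 971 CPM), followed by the pigment epithelium (213, 185, 199.9 and 161) and Müller glia (129, 153, 170.0 and 201). The first did not overlap the others, and the libraries of these others overlapped. Col15a1 was highest among the classes in endothelium (60.3, 42.9, 100.1 and 38.6 CPM, 24 UMIs) and fibroblasts (34.4, 13.4, 23.95 and 60.1), with overlap.

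Transmembrane collagens span the cell membrane and can be shed from it. Col25a1, known from amyloid plaques and from motor axon growth, was at 384, 424, 281 and 271 CPM in amacrine cells, which held 83.4% of its UMIs. Its log2 fold change there was 4.70 ± 0.13. Within the class it was concentrated in cluster 28, led by Chat and Slc5a7, genes of acetylcholine synthesis and choline uptake that mark starburst cells (3111, 3941, 3133 and 2592 CPM). Cluster 38 (led by Htr2c) followed at 1859, 2469, 2099 and 1921 CPM, and no other amacrine cluster passed 400 CPM pooled. Because Col25a1 is itself among the leading genes of both clusters, these levels are a description.

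**Figure D3:**
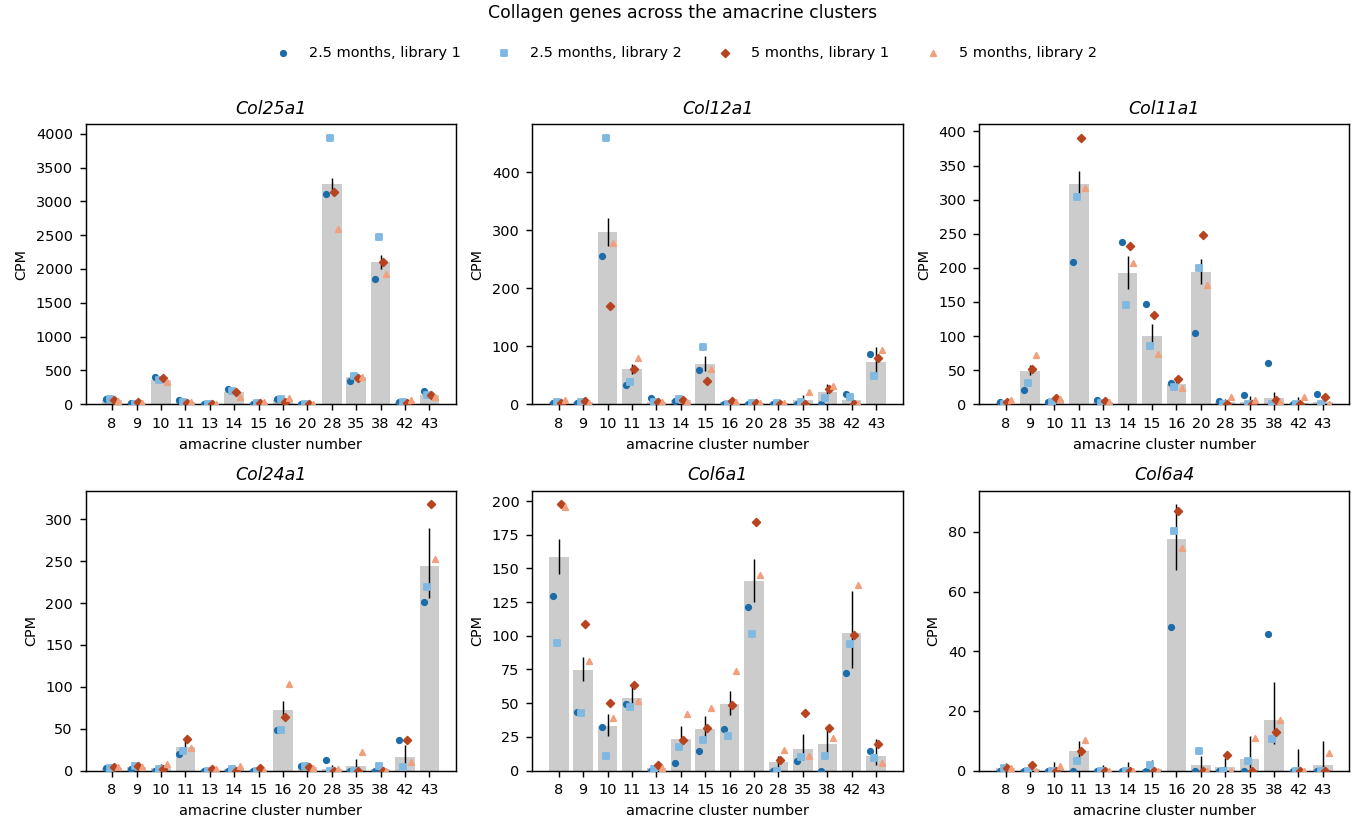
CPM of 6 collagen genes in the 14 amacrine clusters (x axis, cluster number), with bars for the pooled level, black lines for its 95% Poisson interval and a point for each library. Different genes peak in different clusters: Col25a1 in 28 and 38, Col12a1 in 10, Col11a1 in 11, Col24a1 in 43, Col6a1 in 8 and 20 and Col6a4 in 16.

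Col23a1 was shared by glia and the Slc26a4 and Optc cluster. It was at 1125, 1303, 1103 and 1039 CPM in Müller glia and at 1077, 1531, 1210.0 and 1200.0 in that cluster, without a separation. Amacrine cells (93.3, 115, 153 and 150 CPM) and fibroblasts (312.5, 311, 562 and 377) were called as well. Col13a1, a collagen of the neuromuscular junction and of adhesion sites, was called in endothelium, fibroblasts and horizontal cells. Col17a1, the hemidesmosome collagen of epithelia, was too sparse to test, and bipolar cluster 24 held 20 of its 159 UMIs. The anchoring-fibril gene Col7a1 was called in 5 classes, 4 of them neuronal, at pooled levels of at most 14.7 CPM. Col26a1 was called in 6 classes, with its highest class level in rods (11.3, 17.9, 21.1 and 18.8 CPM). Rods were at 16.3 CPM pooled, beside 15.2 in fibroblasts, with overlapping libraries, and were highest in 2 of 4 libraries. Amacrine cluster 14 held 30.7 CPM pooled, from 41 UMIs. Col28a1, with 140 UMIs in the classes, had no class above 2.44 CPM.

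The Slc26a4 and Optc cluster (331 nuclei) joined the Müller set (Col2a1, Col9a1, Col9a2, Col23a1) to Col18a1, Col11a1, Col4a5 and Col4a6. Fibroblast chains were uneven there: Col3a1, Col1a1, Col6a3 and Col14a1 had no UMI in 2.5-month library 2, which held 27 of its nuclei. The summed level of the 13 fibroblast markers in this cluster was 29.4% of that in fibroblasts (median gene share 14.1%), with a range of 2007 to 3749 CPM, all 13 detected. For the 10 Müller markers the summed level was 60.5% of that in Müller glia (median gene share 34.5%), all 10 detected. The part of fibroblast and Müller RNA in these values was not tested. When the collagen and pathway genes were allowed into the clustering, the nuclei assigned to this name changed and only 12 of its 23 genes were called, while 24 rather than 13 were called in the Tbx20 pigment cluster.

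Fibroblasts were not uniform in their collagens. They comprised cluster 5 (1084 nuclei, led by Ctgf, Myoc and Apod), cluster 22 (327 nuclei, led by Ptn, Dmgdh and Wnt10a) and cluster 31 (222 nuclei, led by Pi16, Ebf2 and Clec3b). Collagen genes were kept out of the clustering, yet Col3a1 and Col14a1 stood among the 10 leading genes of cluster 31. Levels within clusters are therefore given as descriptions with 95% Poisson intervals, which cover counting error only.

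In cluster 31, Col3a1 was at 1234 CPM (1152 to 1319), against 408 (385 to 431.5) in cluster 5 and 312 (277.5 to 350.3) in cluster 22. Col14a1 was at 751, 248 and 1.07 CPM in clusters 31, 5 and 22, the last from 1 UMI. Cluster 5 held most of Col11a1 (686 CPM) and Col8a1 (1277 CPM, against 27.9 and 282 in clusters 22 and 31). Cluster 22 stood apart by Col4a6, at 1075, 1360.0, 754 and 723 CPM, and by Col23a1, at 883, 864, 804 and 836, while Col4a6 was at 121 and 37.8 CPM pooled in clusters 5 and 31. All 4 libraries showed this order for Col4a6. In cluster 22, 12 of 13 fibroblast markers and also 8 of 10 melanocyte markers were raised. The part of pigment cell RNA in its levels was not tested.

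**Figure D4:**
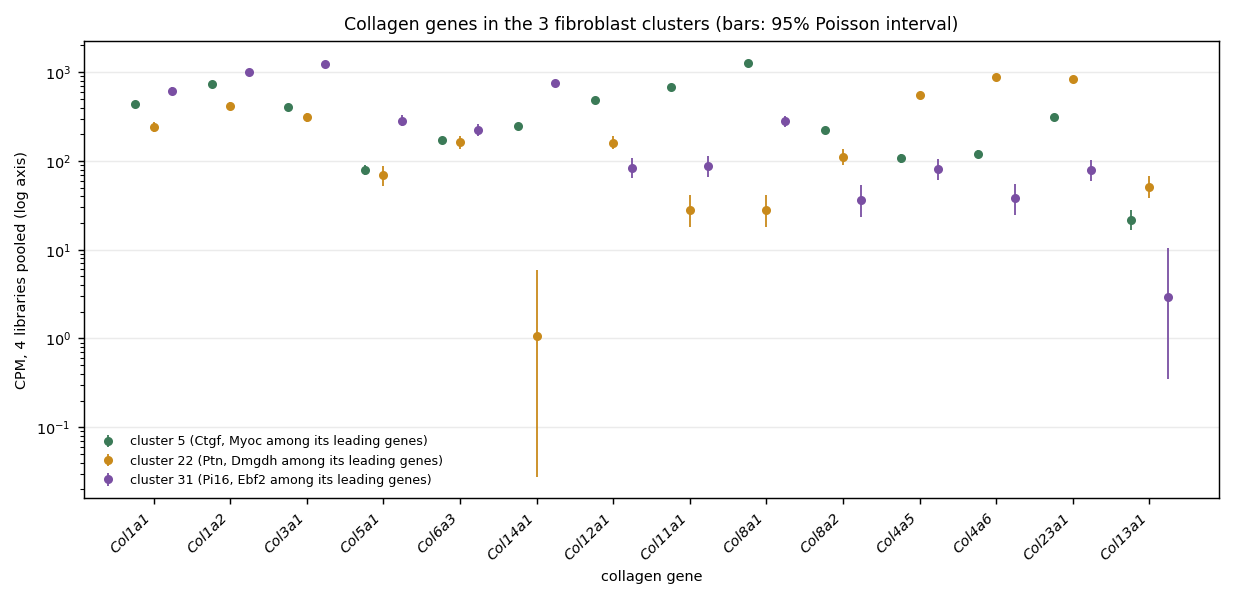
CPM of 14 collagen genes (x axis) in the 3 fibroblast clusters, the 4 libraries pooled, on a log axis with 95% Poisson intervals. Cluster 31 is highest for Col3a1 and Col14a1, cluster 5 for Col8a1 and Col11a1, and cluster 22 for Col4a5, Col4a6 and Col23a1.

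Genes that make, trim, bind and degrade collagens were called higher in fibroblasts more often than in the other classes by count. The 5 lists held 76 genes, of which 75 were in the files and 66 could be tested. Fibroblasts had 42 of the 66 called higher. The Slc26a4 and Optc cluster had 27, Myh11, Tbx20 and Slc4a4 pigment clusters 25, 24 and 24, Müller glia 23, endothelium 22 and rods 2. Of all genes 16.4% were called higher in fibroblasts, 13.2% in the Slc26a4 and Optc cluster, 13.1%, 12.1% and 9.12% in these pigment clusters, 14.8% in Müller glia, 9.99% in endothelium and 12.6% in rods. In rods 28 of the 66 were called lower, beside 13.2% of all genes.

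In fibroblasts, 9 of 20 genes of collagen synthesis and secretion were called, led by Fkbp10 and Serpinh1, chaperones of procollagen (log2 fold changes 3.38 and 3.31), and Sparc (2.66), a collagen-binding matricellular protein. Of the trimming and crosslinking genes 9 of 12 were called, led by Lox (6.22), which oxidises lysines for crosslinks, Adamts2 (5.54), which removes procollagen N-propeptides, and Tgm2 (4.47). Receptors gave 7 of 10, led by Ddr2 (5.05, at 460.2, 678, 437 and 425 CPM), a receptor kinase for fibrillar collagen, Mrc2 (3.84) and Itga11 (3.41). Breakdown genes gave 8 of 11, led by Mmp3 (6.41), Mmp2 (5.09) and Fap (4.95), and basement membrane partners 9 of 13, led by Nid1 (6.65), Lama4 (5.77) and Lamc3 (5.27).

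Müller glia had another subset. Synthesis genes gave 7 of 20, led by the lysyl hydroxylase Plod2 (3.23, at 184, 201, 208 and 192 CPM), Colgalt2 (3.18), which adds galactose to collagen, and the prolyl hydroxylase P3h2 (2.65). Trimming and crosslinking gave 6 of 12, led by Pcolce2 (4.12), an enhancer of procollagen C-proteinase, Tll1 (2.71) and Loxl3 (2.69). Among receptors only Lair1 (4.89, at 57.9, 57.7, 58.8 and 54.8 CPM) and Ddr1 (2.57, at 358, 319, 371 and 302 CPM) were called of 10. The laminin chains Lama1 (4.19), Lama5 (3.06) and Lama3 (2.01) led the 6 of 13 basement membrane partners.

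The pigment epithelium had the highest Col8a1 and Col4a3 levels among the classes. Of 20 synthesis genes 1 was called there, Serpinh1 (1.09), beside 11.4% of all genes. Fap, a protease that cleaves denatured collagen, was called by 8.25, at 1655, 2127, 1474 and 1361 CPM, and Timp3, an inhibitor of metalloproteinases deposited in Bruch's membrane, by 3.45. In endothelium 8 of 13 basement membrane partners were called, led by Lama4 (6.38), Nid1 (5.55) and Hspg2 (4.76).

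The age comparison set the 2 libraries of 5 months against the 2 of 2.5 months within each of 13 classes that had at least 20 nuclei in every library. The matrices of the 2 ages were also made with different Cell Ranger releases (7.1.0 at 2.5 months and 4.0.0 at 5 months), and only the younger mice are labelled wild type, so age, release and any genotype difference cannot be told apart. The labels name a separate donor for each library, and p-values measure the spread between these 4 samples.

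No collagen gene was called in any class by edgeR in 242 gene and class tests, and the lowest adjusted p was 0.193 (Col8a1 in fibroblasts). At an unadjusted p under 0.05 there were 51. DESeq2 called 1, Col8a1 in fibroblasts (adjusted p = 0.011). Of all genes tested, edgeR called 0.0974% in fibroblasts, 0.0953% in Müller glia, 0.0459% in amacrine cells, 0.0489% in rods, 0.087% in cones, 0.0686% in bipolar cells, 0.0517% in ganglion cells and 0.07% in horizontal cells. The shares were 2.97% in the pigment epithelium, 0.202% in melanocytes, 0.0974% in the Myh11 pigment cluster, and 0.0% in the Tbx20 pigment cluster and the Slc26a4 and Optc cluster.

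The unadjusted p-values were most frequent in amacrine cells (14 of 39 tested genes, beside 8.2% of all genes) and fibroblasts (10 of 35, beside 8.33%). Müller glia had 6 of 28 (6.61%), rods 6 of 24 (6.32%), ganglion cells 4 of 30 (6.18%), bipolar cells 3 of 18 (6.53%), cones 2 of 14 (5.64%) and horizontal cells 1 of 2 (6.51%). The Myh11 pigment cluster had 2 of 12 (6.25%), the pigment epithelium 1 of 8 (11.2%), the Tbx20 pigment cluster 1 of 9 (4.42%), the Slc26a4 and Optc cluster 1 of 16 (3.79%) and melanocytes 0 of 7 (5.57%). Collagen genes whose libraries did not overlap between ages numbered 26 of 39 in amacrine cells (40.9% of all genes), 16 of 35 in fibroblasts (39.5%) and 13 of 28 in Müller glia (38.6%). The median log2 fold change was 0.25 in amacrine cells and -0.10 in fibroblasts, beside 0.04 and 0.01 over all genes.

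Single genes were followed by their values, chosen after these were seen. Col8a1 in fibroblasts was at 1197 and 1535 CPM at 2.5 months and 611 and 456 at 5 months, a log2 fold change of -1.35 ± 0.323 (SE, adjusted p = 0.193). In the pigment epithelium it was at 5978 and 6705 against 4292 and 3432, a log2 fold change of -0.62 ± 0.257 (adjusted p = 0.356). Without 5-month library 1, which left 1 library at 5 months, the log2 fold change was -1.60 in fibroblasts and -0.77 in the pigment epithelium. The ages did not overlap in either class. Within fibroblast cluster 5 alone, Col8a1 was at 1600.0 and 2196 CPM against 1013 and 686.5. Cluster 5 made up 69.9% and 70.1% of fibroblast nuclei at 2.5 months and 56.8% and 67.7% at 5 months, while cluster 22, which has little Col8a1, made up 12.7% and 13.3% against 27.7% and 23.1%. The part of this mix in the difference was not tested. Col9a1 in fibroblasts was at 16.3 and 3.66 against 81.7 and 30.9 CPM, without overlap (log2 fold change 2.35 ± 0.605, adjusted p = 0.237). Without 2.5-month library 1, which left 1 library at 2.5 months, the log2 fold change was 3.87. Col9a1 stood at 737 to 821 CPM in Müller glia. Its pooled fibroblast level was 4.09% of the Müller level, below the 14.3% median share of the 10 Müller markers in fibroblasts. The part of free Müller RNA in the fibroblast values of Col9a1 was not tested.

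Amacrine cells gave Col6a1 at 44.9 and 39.6 against 85.4 and 77.5 CPM (log2 fold change 0.93 ± 0.175, adjusted p = 0.206) and Col5a1 at 2.90 and 5.97 against 13.4 and 17.02 (1.62 ± 0.343, adjusted p = 0.301). Neither overlapped between ages. For Col5a1 the log2 fold change ran from 1.29 to 2.36 with each library left out in turn. Amacrine cluster 20 held 259 UMIs of Col5a1, at 44.1 and 68.7 against 149 and 154 CPM, without overlap. That cluster made up 34 of 723 and 77 of 1249 amacrine nuclei, against 108 of 1597 and 141 of 1795. The part of this mix in the Col5a1 difference of the class was not tested. Col25a1 was instead lower at 5 months in amacrine cells, at 384 and 424 against 281 and 271 CPM (-0.57 ± 0.166, adjusted p = 0.511). Its ages overlapped within cluster 28 (3111 and 3941 against 3133 and 2592 CPM) and cluster 38 (1859 and 2469 against 2099 and 1921). Cluster 28 made up 44 of 723 and 74 of 1249 amacrine nuclei, against 69 of 1597 and 81 of 1795. For cluster 38 these were 19 and 32 against 43 and 66 nuclei. The part of this mix in the Col25a1 difference was not tested. In rods Col19a1 was at 55.8 and 57.4 against 72.9 and 124 CPM (0.83 ± 0.246, adjusted p = 0.759). Its log2 fold change ran from 0.38 to 1.14 with each library left out in turn.

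The difference in age effect between fibroblasts and Müller glia was tested with the library as a block. It was called for 3 of 38 collagen genes, beside 0.764% of the 12828 genes tested, and 10 had an unadjusted p under 0.05, beside 7.58%. Col8a1 differed by -1.79 ± 0.368 (adjusted p = 0.0185): it was lower at 5 months in fibroblasts, as above, and at 36.6 and 33.0 against 32.7 and 57.6 CPM in Müller glia. Its pooled Müller level was 0.883% of that in the pigment epithelium, below the 1.58% median share of that epithelium's markers there. That level was 42.1 CPM, beside 29.9 in bipolar cells, 11.3 in rods and 6.35 in cones. The median marker share was higher in rods (3.42%) and cones (1.76%) than in Müller glia. The part of free RNA in the Müller level of Col8a1 and in the difference was not tested. Col27a1 differed by -1.51 ± 0.356 (adjusted p = 0.0444), with 89.3 and 84.3 against 69.7 and 64.3 CPM in fibroblasts and 24.7 and 23.7 against 36.4 and 67.1 in Müller glia. Without 2.5-month library 2 none of the 3 was called, and without 5-month library 2 Col27a1 differed by -0.92 (adjusted p = 0.217).

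Col1a2 differed by 1.80 ± 0.387 (adjusted p = 0.0237). In fibroblasts it was at 793 and 589 against 443 and 841 CPM, with overlap, and in Müller glia at 18.7 and 13.9 against 2.80 and 5.45, without overlap. The Müller level was 1.12% of the fibroblast level, below the 1.51% median share of the fibroblast markers there. At such a share it is read here as background. Other fibroblast RNAs in Müller glia stood at 96.2 and 47.4 against 32.3 and 48.8 CPM (Dcn), at 11.9 and 7.21 against 4.35 and 9.46 (Apod), at 8.51 and 8.75 against 2.80 and 3.73 (Lum) and at 40.9 and 27.3 against 6.53 and 15.5 (Mgp). In cones Col1a2 was at 9.16 and 8.26 against 2.39 and 3.86 CPM and in rods at 36.3 and 21.02 against 8.91 and 18.3. The partner chain Col1a1 in Müller glia was at 9.36 and 7.21 against 7.78 and 5.45 CPM, so its ages overlapped, as those of Dcn and Apod did. The part of free fibroblast RNA in the Col1a2 difference was not tested.

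**Figure D5:**
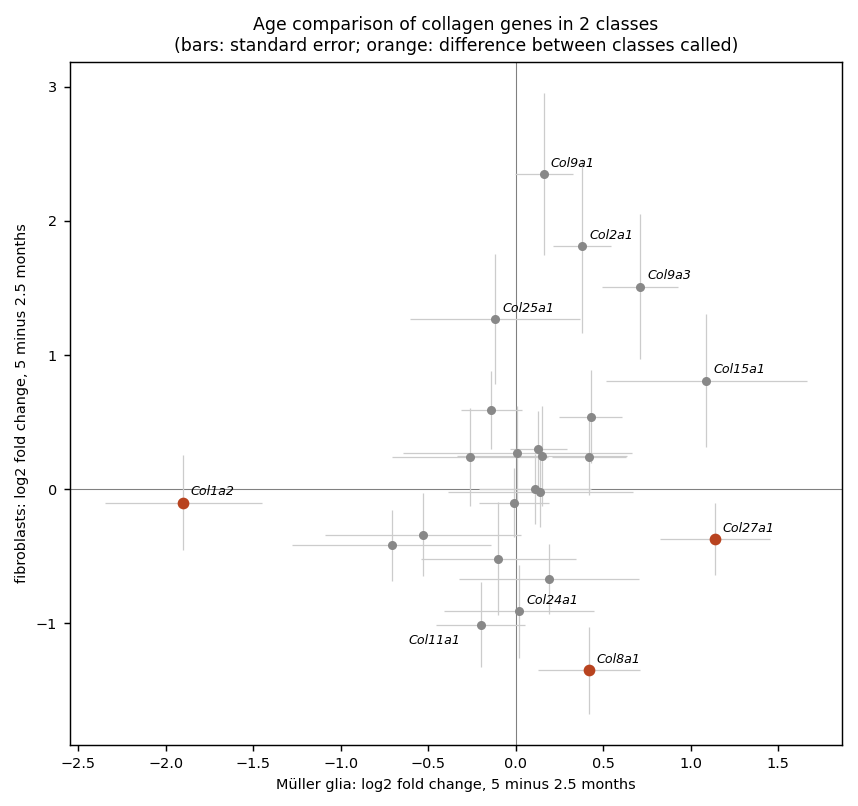
Log2 fold change between 5 and 2.5 months of 24 collagen genes tested in both classes, Müller glia on the x axis and fibroblasts on the y axis, with standard errors. The 3 orange genes are those called in the interaction test: Col8a1 and Col27a1 below the diagonal and Col1a2 to the left. The Müller level of Col1a2 is read as background, and the part of free RNA in that of Col8a1 was not tested.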

How the data were processed

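The deposited files hold UMI counts per gene and barcode, made by the authors with Cell Ranger against mm10, 7.1.0 for the 2.5-month and 4.0.0 for the 5-month libraries per the file headers; whether intronic reads were counted is not given in the sources used here. The 4 libraries held 7404 to 9963 barcodes and 19608067 to 36320257 UMIs, and pairs of libraries shared 6 to 25 barcodes (0.081% to 0.337%).

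From these counts, 27 nuclei under 300 genes or above 5% mitochondrial UMIs were removed, and the 6% with the highest scrublet doublet score in each library were removed (1938). The automatic scrublet threshold marked only 3 and 1 nuclei at 2.5 months and was used as an alternative. Nuclei were clustered with scanpy 1.11.5 (2000 variable genes without the collagen and list genes, 30 components, 15 neighbours, Leiden resolution 1; 45 clusters), and clusters were named from marker lists. 463 nuclei stayed unnamed.

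Class sums of the counts were formed within each library, and those with under 20 nuclei were left out of the tests. The tests were edgeR 4.0.16 quasi-likelihood tests with TMM scaling, filterByExpr and Benjamini-Hochberg adjustment over all genes tested: each class against the mean of the others and the difference in age effect, both with the library as a block, and age without one. DESeq2 1.42.0 was an alternative for age. The class fit of fibroblasts, the age fit of Müller glia and the interaction fit were tested on simulated data. CPM intervals and floors (3 counts) cover counting error only.

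Any collagen gene could be named, those with the largest log2 fold changes in a class with values in every library, and up to 3 genes per pathway list. The members and lists were chosen with earlier results of these data known. Donor numbers do not pair the samples, since the donors are unrelated.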

Additional observations from a re-analysis of the deposited data

Results flagged for a closer look

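A difference in age effect between fibroblasts and Müller glia was called for 3 collagen genes by edgeR's interaction test. The differences in log2 fold change (fibroblasts minus Müller glia) were -1.79 for Col8a1, 1.80 for Col1a2 and -1.51 for Col27a1, and none of these was called without 2.5-month library 2. Age and Cell Ranger release cannot be told apart in them. The Müller levels of Col8a1 and Col1a2 lay below the marker shares given above. That of Col1a2 is read as background, and the part of free RNA in that of Col8a1 was not tested.

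A cluster left out of the classes, number 44, held only 35 nuclei (14, 4, 8 and 9 in the libraries) and was led by Car3, Slc4a11 and Kynu. Its pooled levels exceeded those of every class for 9 collagen genes. Col4a3 was at 4433 CPM (95% Poisson interval 4102 to 4783), with 3978, 4419, 4821 and 4879 in the libraries. Col4a4 was at 2410.0 CPM, Col4a6 at 1629, Col8a1 at 5401, Col8a2 at 1068, Col12a1 at 1449, Col4a1 at 541, Col4a2 at 481 and Col6a3 at 340.5. Col8a1, at 4940.0, 5089, 5733 and 6168 CPM, overlapped the pigment epithelium, whereas every library of Col4a3 lay above it. These levels are values with no test.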

How the results depend on the processing

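Of 166 alternatives to the class counts, 150 gave a count within 1.5 times the reported one. The exceptions were cones (2 without a filter on low counts, 3 with no doublets removed, 3 with the automatic doublet threshold, 0 to 2 with a library left out), ganglion cells (10 without a filter), the Tbx20 pigment cluster (20 with the automatic threshold, 24 with collagen and list genes used to cluster), the Slc26a4 and Optc cluster (12 with those genes), microglia and macrophages (6 with the automatic threshold, 5 at resolution 2, 0 to 1 with a library left out) and horizontal cells (3 without 5-month library 2). With collagen and list genes used to cluster, 10 log2 fold changes in the Slc26a4 and Optc cluster turned: Col1a1 -0.86, Col3a1 -1.87, Col5a2 -1.29, Col6a1 -2.71, Col6a2 -0.66, Col6a3 -1.68, Col8a1 -1.59, Col8a2 -0.79, Col12a1 -1.61 and Col14a1 -0.21. With no doublets removed, Col4a3 and Col9a3 in the pigment epithelium were at 1117 and 860.2 CPM, Col4a5 in the Slc4a4 pigment cluster at 1041 and Col18a1 in the Slc26a4 and Optc cluster at 649.6. The cause was not tested. For age, where 0 genes were called, dropping the filter gave 2 in rods (Col1a1, Col19a1), 2 in amacrine cells (Col5a1, Col6a1), 2 in ganglion cells (Col11a1, Col16a1), 2 in Müller glia (Col1a2, Col27a1), 1 in the pigment epithelium (Col23a1) and 2 in fibroblasts (Col8a1, Col9a1). The automatic threshold gave 1 in the pigment epithelium (Col25a1), and DESeq2 1 in fibroblasts. With a library left out, counts were 0 to 1 in rods, amacrine cells, the pigment epithelium and the Tbx20 pigment cluster, 0 to 2 in ganglion cells and 0 to 3 in fibroblasts. With the donor number as a replicate block, amacrine cells gave 2 (Col5a1, Col6a1), Müller glia 1 (Col1a2) and fibroblasts 1 (Col9a1). Same-numbered libraries deviated with a correlation of -0.041 in rods, 0.016 in Müller glia and -0.086 in fibroblasts. With 2 libraries at each age the deviations mirror each other, so these values cannot show whether same-numbered libraries share more than a number. The interaction count ran from 0 (without 2.5-month library 2) to 5 (without 5-month library 2), and Col27a1 was also lost with relative log expression scaling (adjusted p = 0.0594) and without 2.5-month library 1 (0.0873), as was Col1a2 without the latter (0.0569). The Slc26a4 and Optc cluster could not be fitted with the automatic threshold. In small classes 1 UMI weighs much: 61.8 CPM in the smallest muscle sum and 16.7 in the smallest endothelial sum.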

Other observations

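The 2 other clusters left out of the classes held collagens too. Cluster 29 (227 nuclei, led by Vip) had Col23a1 at 281, 425, 439 and 399 CPM and Col11a1 at 60.8, 45.7, 86.5 and 98.4. Cluster 34 (201 nuclei, led by Vwa5b1 and Cntn6) had Col12a1 at 231, 229, 199.5 and 248.7 CPM and Col15a1 at 96.4, 129, 33.3 and 94.5. For Col15a1 the pooled level of cluster 34 was 100.8 CPM, beside 57.7 in endothelium, the highest class.

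Against the mean of the other classes, ganglion cells were called higher for Col5a3, Col6a2, Col16a1, Col19a1, Col25a1 and Col26a1. Amacrine cells were higher than ganglion cells for Col25a1 and rods for Col19a1 and Col26a1. Col25a1 stood in ganglion cells at 48.6, 95.7, 75.0 and 37.3 CPM.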
